A study of Homo sapiens with 6 samples.

Results

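The genes described here are the EGF family ligands and ERBB receptors measured in SiHa cells, 10 genes chosen by name from the 58174 genes in the files. They comprise 6 ligands of EGFR (AREG, EREG, HBEGF, TGFA, BTC and EPGN), the neuregulin NRG1 and 3 receptors (EGFR, ERBB2 and ERBB3). SiHa is an established cell line from a human cervical squamous cell carcinoma. The OV-BRCA1 group (3 samples) received the plasmid GV230-BRCA1, which carries BRCA1, and the NC group (3 samples) received the empty GV230 plasmid, both with a lipid reagent. Messenger RNA was sequenced 48 h later. The comparison asks which of these genes differed in RNA level between cells given BRCA1 and cells given the empty plasmid. No untransfected cells were part of the comparison, both groups carried plasmid DNA, and the share of cells that took the plasmid up is not given in the sources used here. The study's methods call the samples of a group biological replicates. Whether each came from a transfection of its own is not given in the sources used here, so the p-values measure the spread between these samples only.

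EGF family ligands are made as membrane-anchored precursors, and proteases of the ADAM family release their active domain from the cell surface. A bound ligand makes ERBB receptors pair and phosphorylate each other, and the signal runs through RAS and ERK and through PI3K and AKT. Stratified epithelia use these ligands on themselves and on neighbouring cells in growth and wound repair, and EGFR is often abundant in squamous carcinomas.

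The deposited values are FPKM, mapped fragments relative to transcript length and to all mapped fragments of the sample, summed here over the transcripts of each gene. FPKM is scaled per length, so levels of different genes can be set side by side. Values of log2(FPKM + 1) were tested between the groups with limma across the 16321 genes that reached 0.5 FPKM in 3 or more samples, and p-values were adjusted by the Benjamini-Hochberg method over all of them. A gene passed when its adjusted p was below 0.05, and it met the fold change criterion when the absolute log2 fold change was also above 1. A log2 fold change on this scale understates the change of a gene with a low FPKM. The estimated depth was 15.6, 16.1 and 13.6 M fragments in OV-BRCA1 replicates 1, 2 and 3 and 15.6, 18.2 and 19.1 M in NC replicates 1, 2 and 3.

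BRCA1, the DNA repair gene on the plasmid, was at 35.7, 40.8 and 34.9 FPKM in OV-BRCA1 replicates 1, 2 and 3 and at 20.1, 14.9 and 21.7 FPKM in NC replicates 1, 2 and 3. Each OV-BRCA1 library thus exceeded each NC library, the direction the labels give, as was the case for 23.4% of the genes tested. BRCA1 passed with a log2 fold change of 0.95 (limma, adjusted p = 0.00373), short of the fold change criterion. RNA from the plasmid and from the chromosomal gene cannot be told apart in these sums. GAPDH, a glycolytic enzyme used as a reference gene, was at 2896 ± 95.1 FPKM in the OV-BRCA1 group and 2832 ± 72.0 FPKM in the NC group (SD, n = 3 each). It did not pass, with a log2 fold change of 0.03 that turned to -0.0075 under scaling to nuclear protein-coding genes. Mitochondrial RNA held 14.8%, 17.2% and 16.3% of all FPKM in the OV-BRCA1 samples and 21.9%, 23.2% and 21.0% in the NC samples. With FPKM scaled to nuclear protein-coding genes, which takes this difference out, all 8 members described next as higher still passed.

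All 10 members were tested, and 9 of them reached an FPKM of 0.5 in all 6 samples. Of the 10, 8 passed and the other 2 did not, where 35.3% of all genes tested passed. All 8 were higher in the OV-BRCA1 group, where 16.4% of all genes tested were higher and 18.9% lower. In those 8 genes each OV-BRCA1 sample exceeded all NC samples, which was the case for 23.4% of the genes tested. The 8 comprised all 7 ligands and 1 of the 3 receptors, EGFR. Only NRG1 and EPGN also met the fold change criterion, 2 of 10 members against 3.99% of all genes tested (2.89% upward and 1.1% downward). The median log2 fold change was 0.72 over the 10 members and -0.04 over all genes tested. In bulk RNA, more cells with a transcript and more transcript in each cell cannot be told apart.

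**Figure D1:**
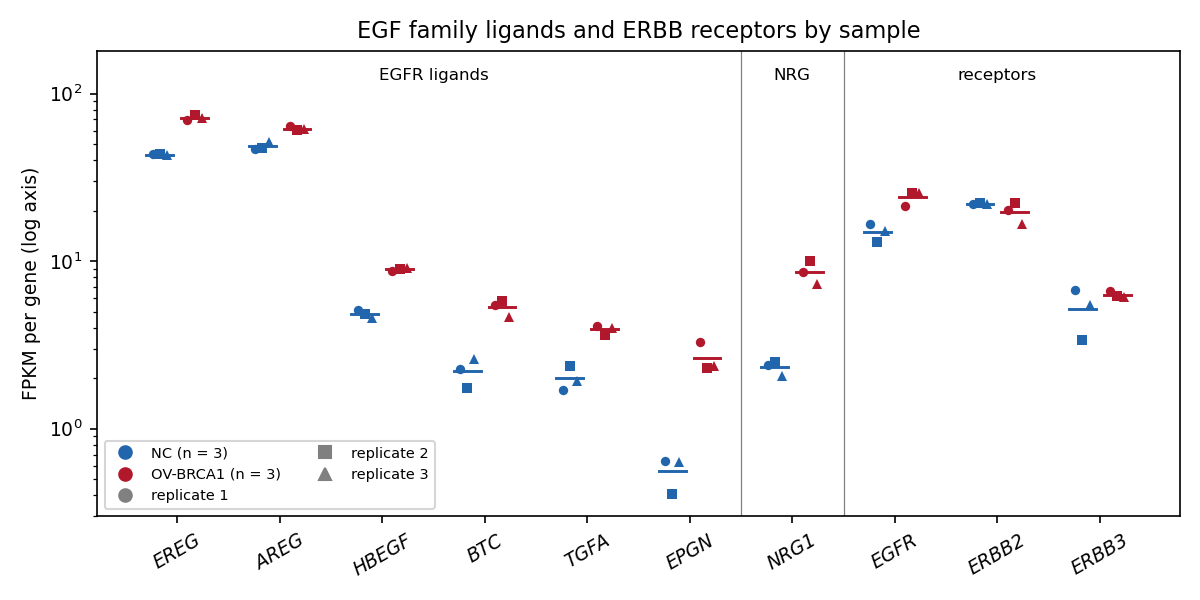
FPKM of each member on a log axis, with 1 point per sample (NC in blue, OV-BRCA1 in red, the marker shape giving the replicate) and a line at the mean of each group. The OV-BRCA1 points lie above the NC points for all 7 ligands and for EGFR, and the points mix for ERBB2 and ERBB3.

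**Figure D2:**
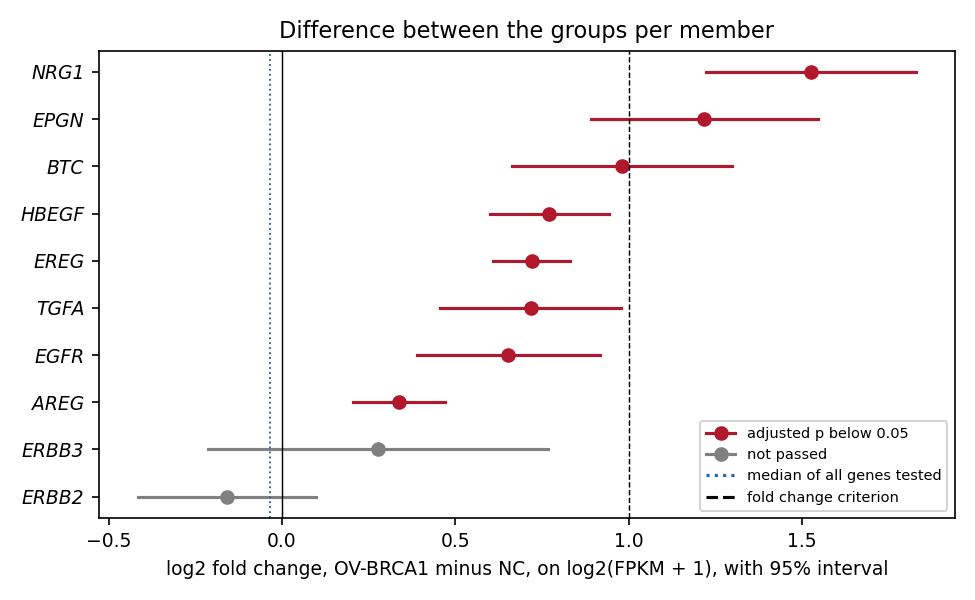
Log2 fold change of each member between the OV-BRCA1 and NC groups on log2(FPKM + 1), with its 95% interval from limma. Intervals of 8 members lie above 0, and the points of NRG1 and EPGN lie to the right of the dashed line at 1.

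The plot of FPKM by sample shows the separation of the groups gene by gene, and the plot of fold changes shows that most of the rises were below the fold change criterion. The genes EPGN, EREG, AREG and BTC lie in this order within 486.2 kb of chromosome 4 and all rose. Their promoters are shown because these neighbouring genes moved together. The sequences are those of RefSeq on GRCh38.p14 and run from 250 bases before to 50 bases after the annotated start, 5′ to 3′ along the gene, at chr4:74308220-74308519 (plus strand) for EPGN, chr4:74364895-74365194 (plus strand) for EREG, chr4:74444886-74445185 (plus strand) for AREG and chr4:74794474-74794773 (minus strand) for BTC. Capitals mark matches to the motifs searched on both strands, a cAMP response element (TGACGTCA), an AP-1 site (TGA and TCA with any 1 base between them), a TATA box (TATAAA) and the NF-kB motif, and no match overlapped another.
EPGN: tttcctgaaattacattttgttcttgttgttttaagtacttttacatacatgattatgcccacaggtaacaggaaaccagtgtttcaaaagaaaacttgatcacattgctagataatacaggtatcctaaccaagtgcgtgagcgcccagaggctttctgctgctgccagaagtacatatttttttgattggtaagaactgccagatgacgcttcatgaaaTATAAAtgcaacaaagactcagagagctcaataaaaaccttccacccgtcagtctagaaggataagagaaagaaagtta
EREG: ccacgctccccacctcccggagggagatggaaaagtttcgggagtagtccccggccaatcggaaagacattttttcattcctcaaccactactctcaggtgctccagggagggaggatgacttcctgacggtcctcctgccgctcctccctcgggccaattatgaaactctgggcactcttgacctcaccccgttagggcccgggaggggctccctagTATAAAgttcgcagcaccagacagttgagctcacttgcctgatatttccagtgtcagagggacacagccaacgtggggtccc
AREG: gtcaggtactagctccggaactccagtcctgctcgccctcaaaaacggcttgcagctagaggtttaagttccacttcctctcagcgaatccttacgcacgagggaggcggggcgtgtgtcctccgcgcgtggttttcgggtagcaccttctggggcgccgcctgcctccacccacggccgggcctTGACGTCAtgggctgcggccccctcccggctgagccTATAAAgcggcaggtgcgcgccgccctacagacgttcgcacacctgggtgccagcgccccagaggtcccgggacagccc
BTC: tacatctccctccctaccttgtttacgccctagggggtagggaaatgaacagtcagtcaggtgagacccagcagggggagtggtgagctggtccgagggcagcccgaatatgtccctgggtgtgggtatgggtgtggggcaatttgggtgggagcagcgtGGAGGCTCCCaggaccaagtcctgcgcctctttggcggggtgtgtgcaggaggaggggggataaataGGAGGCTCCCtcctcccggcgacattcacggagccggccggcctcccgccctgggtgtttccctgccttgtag
In AREG the capitals are a cAMP response element 65 bases and a TATA box 29 bases before the start. EREG holds a TATA box 32 bases and EPGN one 29 bases before the start, and BTC holds 2 matches to the NF-kB motif. Of 35116 promoters of this length, 1.85% held the cAMP response element, 7.71% the AP-1 site, 11.5% the TATA box and 11.3% the NF-kB motif. The chromosome 4 promoters thus shared no motif across all 4 genes, although 3 of the 4 held a TATA box. Promoter sequences were matched for 8 of the 10 members, in 10 windows. Among the other windows, 1 of TGFA held 1 match to the NF-kB motif, that of ERBB2 held 1 AP-1 match, the downstream start of EGFR held 2 AP-1 and 2 TATA box matches, and that of HBEGF held none of the motifs. ERBB3 and NRG1 had no entry. A match is a description of letters and not evidence that a factor binds there.

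EREG encodes epiregulin, a ligand of EGFR and ERBB4, and was among the most abundant members (ENSG00000124882, chromosome 4, 74365143 to 74388751). Its level was 69.5, 74.3 and 71.8 FPKM in OV-BRCA1 replicates 1, 2 and 3 and 43.4, 43.3 and 42.9 FPKM in NC replicates 1, 2 and 3. The NC samples lay within 1 FPKM of each other, far below all OV-BRCA1 samples. The means were 71.9 ± 2.41 and 43.2 ± 0.266 FPKM (SD, n = 3 each), and the log2 fold change was 0.72 (95% interval 0.61 to 0.83, limma adjusted p = 0.000134). AREG encodes amphiregulin, a ligand of EGFR alone (ENSG00000109321, chromosome 4, 74445134 to 74455009). It was at 63.6, 60.2 and 61.3 FPKM in the OV-BRCA1 samples and at 47.0, 47.5 and 51.5 FPKM in the NC samples. The groups did not overlap, but the rise was the smallest of the ligands, with a log2 fold change of 0.34 (95% interval 0.20 to 0.47, limma adjusted p = 0.00506). The ratio of EREG to AREG was 1.09, 1.23 and 1.17 in the OV-BRCA1 samples and 0.924, 0.911 and 0.833 in the NC samples, so EREG exceeded AREG only in the OV-BRCA1 samples.

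BTC encodes betacellulin, which binds EGFR and ERBB4 (ENSG00000174808, chromosome 4, 74744759 to 74794686). Its FPKM was 5.48, 5.79 and 4.66 in the OV-BRCA1 samples and 2.28, 1.74 and 2.61 in the NC samples. Even the lowest OV-BRCA1 sample was well above the highest NC sample, and the ratio of the means was 2.40. The log2 fold change of 0.98 (95% interval 0.66 to 1.30, limma adjusted p = 0.00241) ended just short of the fold change criterion. It met the criterion without OV-BRCA1 replicate 3 (1.06), without NC replicate 3 (1.07), with a pseudocount of 0.1 (1.24) and under scaling by the median of ratios (1.01). EPGN encodes epigen, a ligand of EGFR with low affinity (ENSG00000182585, chromosome 4, 74308473 to 74315307). It was the least abundant member, at 3.29, 2.30 and 2.36 FPKM in the OV-BRCA1 samples and 0.644, 0.408 and 0.629 FPKM in the NC samples. The ratio of the means was 4.73 and the log2 fold change 1.22 (95% interval 0.89 to 1.55, limma adjusted p = 0.00117), with no overlap between the groups. These values rest on an estimated 16.7 to 41.5 fragments per OV-BRCA1 sample and 3.42 to 12.0 per NC sample. The files spread them over 9 transcripts, and the most abundant of these, EPGN-202, did not pass when it stood for the gene (log2 fold change 0.44, limma adjusted p = 0.4997). Over all alternative settings the adjusted p of the gene EPGN lay between 0.00109 and this value.

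HBEGF encodes heparin-binding EGF-like growth factor, a ligand of EGFR and ERBB4 (ENSG00000113070, chromosome 5, 140332843 to 140346631). It was at 8.68, 9.02 and 9.09 FPKM in the OV-BRCA1 samples and at 5.12, 4.80 and 4.55 FPKM in the NC samples. The spread within each group was small beside the gap between them. The means were 8.93 ± 0.223 and 4.83 ± 0.286 FPKM (SD, n = 3 each), and the log2 fold change was 0.77 (95% interval 0.60 to 0.94, limma adjusted p = 0.000572). TGFA encodes transforming growth factor alpha, which binds EGFR (ENSG00000163235, chromosome 2, 70447280 to 70554193). Its FPKM was 4.10, 3.64 and 3.997 in the OV-BRCA1 samples and 1.69, 2.37 and 1.94 in the NC samples. All OV-BRCA1 samples were higher, at a ratio of means of 1.96 and a log2 fold change of 0.72 (95% interval 0.46 to 0.98, limma adjusted p = 0.00374).

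The 6 EGFR ligands together summed to 154.6, 155.3 and 153.2 FPKM in the OV-BRCA1 samples and to 100.1, 100.2 and 104.2 FPKM in the NC samples. AREG and EREG made up most of this sum, 86.1%, 86.6% and 86.9% of it in the OV-BRCA1 samples and 90.3%, 90.7% and 90.7% in the NC samples. The 4 less abundant ligands therefore took a larger share of the ligand RNA in every OV-BRCA1 sample than in any NC sample.

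Among the transcripts of these ligands, a single protein-coding one held most of the FPKM of AREG, EREG, HBEGF, TGFA and BTC in both groups, whereas EPGN-202 held 33.3% of the EPGN sum in the OV-BRCA1 samples and 56.5% in the NC samples. AREG-201 held 97.9% of the AREG sum in the OV-BRCA1 group against 93.6% in the NC group, and EREG-201 held 91.6% against 86.1%. For HBEGF-201 the shares were 90.1% and 90.5%, for TGFA-201 82.9% and 90.7%, and for BTC-201 89.4% and 89.9%. The retained-intron transcript AREG-203 ran against the gene, at 0.461, 0.565 and 0.526 FPKM in the OV-BRCA1 samples and 2.58, 1.74 and 2.12 FPKM in the NC samples. It was thus lower in every OV-BRCA1 sample than in any NC sample, although it was a small part of AREG in both groups.

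NRG1 encodes neuregulin 1, a ligand of ERBB3 and ERBB4 and not of EGFR (ENSG00000157168, chromosome 8, 31639386 to 32767959). It was at 8.55, 10.0 and 7.29 FPKM in the OV-BRCA1 samples and at 2.41, 2.51 and 2.05 FPKM in the NC samples. This was the largest difference of the 10 members on the log2(FPKM + 1) scale, with means of 8.62 ± 1.37 and 2.32 ± 0.243 FPKM (SD, n = 3 each) and a ratio of 3.71. With a pseudocount of 0.1, the difference was larger in EPGN (2.06) than in NRG1 (1.84). The log2 fold change was 1.53 (95% interval 1.22 to 1.83, limma adjusted p = 0.000363), on an estimated 395 to 598 fragments per OV-BRCA1 sample and 80.5 to 106 per NC sample. Of its 22 transcripts, the protein-coding NRG1-202 was at 4.12, 4.70 and 3.93 FPKM in the OV-BRCA1 samples and 0.692, 0.121 and 0.117 FPKM in the NC samples. That transcript held 49.3% of the summed NRG1 FPKM with BRCA1 and 13.3% with the empty plasmid. NRG1-203 was at 1.26, 0.342 and 1.11 FPKM against 0, 1.28 and 0.937 FPKM, so its groups overlapped. How the deposited values assign fragments to transcripts that share exons is not given in the sources used here, so these shares are less certain than the sums per gene.

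EGFR, the receptor of AREG, EREG, HBEGF, TGFA, BTC and EPGN, is a tyrosine kinase of the cell surface (ENSG00000146648, chromosome 7, 55019021 to 55211628). It was at 21.3, 25.3 and 25.4 FPKM in the OV-BRCA1 samples and at 16.6, 13.1 and 15.1 FPKM in the NC samples. The groups did not overlap, and the means of 24.0 ± 2.33 and 14.9 ± 1.77 FPKM (SD, n = 3 each) gave a log2 fold change of 0.65 (95% interval 0.39 to 0.92, limma adjusted p = 0.00556). Of its 11 transcripts, the protein-coding EGFR-201 was at 19.4 ± 0.288 and 10.2 ± 1.32 FPKM and held 80.8% and 68.6% of the sum. The antisense gene EGFR-AS1 lies opposite EGFR and averaged 0.137 FPKM in the OV-BRCA1 group and 0.0564 FPKM in the NC group. Use of the strand in quantification is not given in the sources used here.

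ERBB2, the receptor with no known ligand that pairs with the other ERBB receptors, did not pass (ENSG00000141736, chromosome 17, 39687914 to 39730426). Its FPKM was 20.1, 22.3 and 16.6 in the OV-BRCA1 samples and 22.0, 22.1 and 21.8 in the NC samples. OV-BRCA1 replicate 2 lay above all NC samples and the others below them, so the groups overlapped. The log2 fold change was -0.16 (95% interval -0.42 to 0.10, limma adjusted p = 0.292). Its most abundant transcript, ERBB2-206, an annotated target of nonsense-mediated decay, was at 13.4, 10.9 and 7.70 FPKM in the OV-BRCA1 samples and 14.0, 0.0496 and 12.5 FPKM in the NC samples. In NC replicate 2 the FPKM stood instead on ERBB2-219, at 8.66. With ERBB2-206 in place of the sum the direction of ERBB2 reversed (0.94, not passing). The sum itself varied little between NC samples and more between OV-BRCA1 samples (SD 0.159 and 2.90 FPKM). Its log2 fold change was -0.25 without OV-BRCA1 replicate 2 and -0.05 without OV-BRCA1 replicate 3, passing in neither case. MIEN1, at a mean of 9.49 FPKM in the OV-BRCA1 group and 11.8 FPKM in the NC group, and PGAP3, at 2.30 and 3.84 FPKM, overlap ERBB2 on the opposite strand, and without known strand use their reads cannot be told apart there.

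ERBB3, a receptor of neuregulins with little kinase activity of its own, did not pass either (ENSG00000065361, chromosome 12, 56076799 to 56103505). It was at 6.62, 6.16 and 6.07 FPKM in the OV-BRCA1 samples and at 6.69, 3.37 and 5.44 FPKM in the NC samples. The groups overlapped, since NC replicate 1 was above all OV-BRCA1 samples while NC replicate 2 was far below them. The log2 fold change was 0.28 (95% interval -0.21 to 0.77, limma adjusted p = 0.332), an interval wide enough to hold the rise of EGFR. This fold change was 0.05 without NC replicate 2 and 0.46 without NC replicate 1, passing in neither case. Of its 21 transcripts, the protein-coding ERBB3-213 was at 2.72, 2.35 and 2.33 FPKM in the OV-BRCA1 samples and 1.97, 0.471 and 0.590 FPKM in the NC samples. The protein-coding ERBB3-201 went the other way, at 0.319, 0.341 and 0.601 FPKM against 0.6997, 0.8597 and 1.64 FPKM, and held 6.69% of the sum against 20.6%. Neither transcript overlapped between the groups, and their differences were opposite in sign. For both ERBB2 and ERBB3 a miss of the threshold does not show equal levels.

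By level, the order in the OV-BRCA1 group was EREG, AREG, EGFR, ERBB2, HBEGF, NRG1, ERBB3, BTC, TGFA and EPGN. The ranges of neighbours in it overlapped for EGFR with ERBB2 and for HBEGF with NRG1. In the NC group the order was AREG, EREG, ERBB2, EGFR, ERBB3, HBEGF, NRG1, BTC, TGFA and EPGN. Here the ranges overlapped for ERBB3 with HBEGF and for the neighbours from NRG1 to TGFA. Thus AREG and EREG changed places, and NRG1 stood above ERBB3 in the OV-BRCA1 group and below it in the NC group. The ratio of ERBB2 to EGFR was 0.945, 0.882 and 0.654 in the OV-BRCA1 samples and 1.32, 1.69 and 1.44 in the NC samples, so EGFR exceeded ERBB2 in each OV-BRCA1 sample and in no NC sample. The summed EGFR ligands stood at 7.26, 6.13 and 6.04 times the FPKM of EGFR in the OV-BRCA1 samples and 6.03, 7.66 and 6.91 times in the NC samples. These ratios overlapped, so no shift of summed ligand RNA relative to EGFR RNA was seen.

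The remaining family genes were at 0 or at low levels. ERBB4, the other neuregulin receptor, was listed at 0 in all 6 samples. EGF, the founding ligand, was listed above 0 only in OV-BRCA1 replicate 2, at 0.0127 FPKM. NRG3 was at 0.0163, 0 and 0.0115 FPKM in the OV-BRCA1 samples and listed at 0 in all NC samples (exact two-sided permutation test, p = 0.4, the smallest possible being 0.1). NRG2 was at 0.698, 0.606 and 0.611 FPKM in the OV-BRCA1 samples and 0.297, 0.415 and 0.393 FPKM in the NC samples. It did not pass (log2 fold change 0.26, limma adjusted p = 0.0576), although the groups did not overlap, and it passed narrowly under scaling by the median of ratios (0.27). It reached 0.5 FPKM in the OV-BRCA1 samples only, so it entered the test through the group in which it was high. NRG4 was at 0.595, 0.428 and 0.649 FPKM against 1.55, 1.12 and 0.644 FPKM. It did not pass (-0.42), and it passed without NC replicate 3 (-0.58), the NC sample that lay among the OV-BRCA1 samples. Of the receptors that bind neuregulins, ERBB3 was therefore measured in all libraries and ERBB4 in none.

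**Figure D3:**
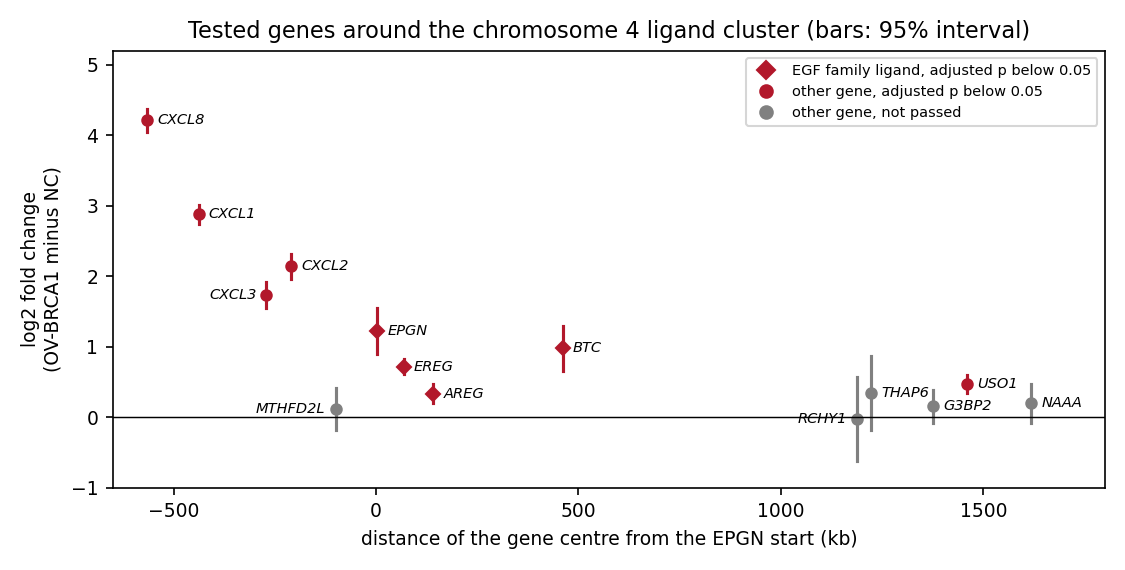
Log2 fold change of the tested genes around the chromosome 4 ligands, with 95% intervals, against the distance of the gene centre from the start of EPGN in kb (diamonds for the ligands, circles for the 5 tested genes on each side, red where the adjusted p was below 0.05). All 4 ligands and 4 of the 5 genes before them were higher, against 1 of the 5 genes after them. Of all genes tested, 16.4% were higher.

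The plot of the chromosome 4 region sets the ligands beside their neighbours, which were taken by position after the values of the members had been seen. From EPGN to BTC the files hold 6 genes, of which the 4 ligands were tested and the other 2 were listed at 0 in all samples. On the side of EPGN, CXCL8, CXCL1, CXCL3 and CXCL2, which encode chemokines that attract neutrophils, rose by log2 fold changes of 4.21, 2.88, 1.74 and 2.14. Reads of CXCL1, CXCL2 and CXCL3 could be split between these similar genes. MTHFD2L, a mitochondrial folate enzyme gene that lies directly between these chemokines and EPGN, did not pass (0.11, limma adjusted p = 0.513). Beyond BTC only USO1, a vesicle tethering factor, rose (0.47), whereas RCHY1 (-0.02), THAP6 (0.35), G3BP2 (0.16) and NAAA (0.20) did not pass. MTHFD2L thus lay between genes that passed on both of its sides.

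The wider pathway was described by 5 lists with 87 further genes, of which 78 were tested. In total 21 (26.9%) were higher and 13 (16.7%) lower, against 16.4% and 18.9% of all genes tested, and the median log2 fold change was 0.08. Of the 21 higher genes, 13 were in the list of ERK response genes, and a difference between the lists was not tested.

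Among the genes of ligand shedding, 3 of 11 tested were higher and 3 lower, with a median of 0.12. These were 27.3% in each direction, against 16.4% higher and 18.9% lower of all genes tested. The higher genes were ADAM12 (0.42), a protease, BACE2 (0.50), also a protease, and RHBDF2 (0.36), an inactive rhomboid that guides ADAM17 to the surface. The lower genes were RHBDF1 (-0.50), the related rhomboid, BACE1 (-0.45), a protease, and TIMP3 (-0.39), an inhibitor of ADAM17. ADAM17, the main sheddase of AREG, EREG, HBEGF, TGFA and EPGN, did not pass (0.24, limma adjusted p = 0.174), and neither did ADAM10 (0.12), the main sheddase of BTC. The calls of BACE2, RHBDF2 and RHBDF1 lay close to the threshold. All 3 were lost with no filter on low values and with protein-coding transcripts only, BACE2 (0.46) and RHBDF2 (0.33) under scaling to nuclear protein-coding genes, and RHBDF1 (-0.47) under scaling by the median of ratios. With the most abundant transcript in place of the sum, ADAM12 (0.28), BACE2 (0.62) and RHBDF2 (0.42) did not pass. BACE2 also did not pass without any 1 of OV-BRCA1 replicates 1, 2 and 3 or NC replicates 2 and 3 (0.39 to 0.53). RHBDF1 did not pass without any 1 of the OV-BRCA1 replicates or NC replicates 1 and 2 (-0.56 to -0.39). RHBDF2 did not pass without OV-BRCA1 replicate 1 or 2 or NC replicate 2 or 3 (0.31 to 0.33). BACE1 and RHBDF1 also reversed, without passing, when the most abundant transcript stood for the gene.

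Of the 27 tested genes of signal relay from the receptors, 1 was higher and 6 were lower, with a median of -0.05. MAP2K1, a kinase that activates ERK, rose by 0.57. Among the falls were those of PLCG1 (-0.69), a phospholipase, HRAS (-0.48), a RAS GTPase, and MAPK3 (-0.44), which is ERK1. MAPK3 did not pass without OV-BRCA1 replicate 1 or 3 or NC replicate 2 or 3 (-0.44 to -0.35), with no filter on low values, with the most abundant transcript or with protein-coding transcripts only. HRAS did not pass with the most abundant transcript (-0.64) or with protein-coding transcripts only (-0.70), and PLCG1 did not with the latter (-0.53). Of the tested relay genes, 3.70% were thus higher and 22.2% lower, against 16.4% and 18.9% of all genes tested.

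Of the 17 tested inhibitors of the receptors and their signal, 4 were higher and the others did not pass, with a median of 0.15. The higher share was 23.5%, against 16.4% of all genes tested. ERRFI1, which encodes a feedback inhibitor that binds the kinase domain of EGFR, was at 81.4, 80.3 and 80.0 FPKM in the OV-BRCA1 samples and at 37.3, 35.8 and 35.8 FPKM in the NC samples. The replicates of both groups lay close together and the log2 fold change was 1.13 (limma adjusted p = 1.66e-05), past the fold change criterion. SPRED1 (0.59) and SPRED2 (0.36), inhibitors of RAS signaling, and SOCS5 (0.34), an adaptor for receptor degradation, were also higher, though SOCS5 did not pass with the most abundant transcript (0.51).

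The ERK response genes, whose transcription is known to follow ERK activity, held 13 higher and 4 lower genes among 21 tested, with a median of 0.57. Thus 61.9% were higher, against 16.4% of all genes tested. The lower share, 19.0%, was close to the 18.9% of all genes tested. The fold change criterion was met upward by 7 of the list and downward by 1, against 2.89% and 1.1% of all genes tested. FOSL1 (2.14), an AP-1 subunit, PHLDA1 (1.98), CCND1 (1.70), which encodes cyclin D1, and DUSP5 (1.44), a phosphatase of ERK, had the largest rises of the list. PHLDA1 did not pass without OV-BRCA1 replicate 1 (1.75) or 2 (1.80), with no filter on low values or with the most abundant transcript. In the opposite direction, FOS, an immediate early transcription factor, was at 68.2, 70.6 and 72.9 FPKM in the OV-BRCA1 samples and at 309, 329 and 299 FPKM in the NC samples. It fell in all OV-BRCA1 samples, with a log2 fold change of -2.13 (limma adjusted p = 3.88e-06). EGR1 (-0.63) and JUNB (-0.28), which also encode immediate early factors, were lower as well. EGR2 (-0.48), the remaining lower gene, reached 0.5 FPKM in the NC samples only, so it entered the test through the group in which it was high. It did not pass without OV-BRCA1 replicate 1 (-0.40) or 3 (-0.45) and was not tested without any 1 NC sample. RNA levels do not measure receptor or ERK phosphorylation, which was not tested.

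**Figure D4:**
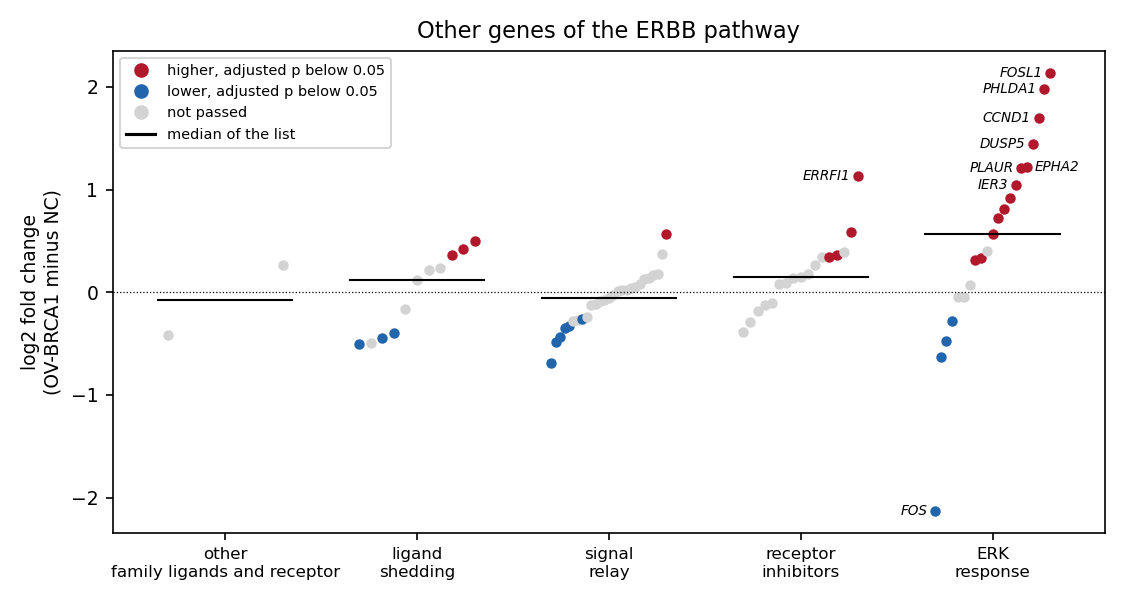
Log2 fold change of the 78 tested genes in the 5 lists of the ERBB pathway, with 1 point per gene (red higher, blue lower, grey not passed) and a line at the median of each list. The ERK response list has the highest median, 0.57, and holds both the largest rises and the largest fall, that of FOS.

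The plot of the pathway lists shows the relay genes spread around 0 and the response genes split into rising and falling parts. For each member, the 2 genes with the most similar profile were sought by Euclidean distance over the 6 samples between values of log2(FPKM + 1) centred on each gene's mean. For EREG they were GPRC5A (0.0607) and DDX21 (0.0678), and for AREG DEGS1 (0.0433) and MED27 (0.0449). HBEGF was closest to ACSL4 (0.0514) and NUCB2 (0.0788), TGFA to CDKL1 (0.112) and AC073072.1 (0.135), and BTC to HLA-V (0.133) and BRCA1 (0.165). The closest profiles were GALR2 (0.108) and ADM (0.196) for EPGN, and ARNT2 (0.189) and IL15RA (0.215) for NRG1. Among the receptors, EGFR was closest to FTO (0.156) and ZFP90 (0.159), ERBB2 to CKAP2L (0.0774) and HINT2 (0.106), and ERBB3 to MBD5 (0.200) and JPH3 (0.213). No member was among the closest profiles of another, and similar profiles over 6 samples mostly restate a similar difference between the groups.

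Marker genes of 5 cell classes were read as a check of the cell line, with FPKM summed per sample. The 7 epithelial markers summed to 650.4, 639.7 and 609.6 FPKM in the OV-BRCA1 samples and to 513, 508 and 542 FPKM in the NC samples, with KRT8 the most abundant (mean 349 FPKM). Of the 4 tested, 3 were higher, where 16.4% of all genes tested were higher and 18.9% lower. CDH1, which did not pass, averaged 0.726 FPKM in the OV-BRCA1 group and 0.435 FPKM in the NC group. KRT19, CLDN4 and CLDN7 were too low for the test, and CLDN4 was lower in every OV-BRCA1 sample than in any NC sample. The 8 squamous markers summed to 1242, 1169.7 and 1345 FPKM against 1702, 1679.7 and 1697 FPKM, mostly KRT17 (mean 1233 FPKM, log2 fold change -0.48), and of the 5 tested 2 were higher and 2 lower. Among the higher ones, KRT6A reached 0.5 FPKM in the OV-BRCA1 samples only. It thus entered the test through the group in which it was high. The basal keratin KRT5 stayed at or below 0.202 FPKM. KRT14, also a basal keratin, was at 0.671, 0.497 and 0.675 FPKM against 0.175, 0.117 and 0.333 FPKM, and the squamous factor TP63 was at 0.192, 0.369 and 0.226 FPKM against 0.0131, 0.0370 and 0.0367 FPKM. Both were higher in every OV-BRCA1 sample than in any NC sample, but like KRT5 they were too low for the test. Other genes of the squamous list beside KRT17 were abundant. In the OV-BRCA1 and NC groups, SFN averaged 125 and 134 FPKM (not passing) and PERP 73.0 and 110 FPKM (lower). DSP averaged 19.6 and 14.4 FPKM and was higher. The 6 fibroblast markers summed to 3.31, 3.32 and 3.82 FPKM against 6.75, 6.73 and 6.15 FPKM, led by COL1A1, the only one tested, which was lower, with LUM listed at 0. The 4 endothelial markers summed to 0.761, 1.45 and 0.899 FPKM against 0.692, 0.788 and 0.629 FPKM, led by PECAM1, the only one tested, which did not pass, with VWF and KDR listed at 0. The 6 markers of the immune list, which also holds the globin gene HBB, summed to 31.3, 34.1 and 37.2 FPKM against 23.9, 22.2 and 22.9 FPKM. PTPRC and HBB were listed at 0. Of this list, CD68, the most abundant, averaged 26.3 and 3.43 FPKM and was higher, whereas CD14 averaged 7.79 and 19.4 FPKM and was lower. Epithelial, squamous, fibroblast and immune sums thus differed between the groups beside the ligands, and their part in the ligand differences was not tested. The defining immune marker PTPRC and the endothelial markers VWF and KDR were listed at 0 throughout.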

How the data were processed

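RNA was sequenced in 6 samples, and groups and replicate numbers came from the labels. The authors deposited FPKM per transcript (199167 transcripts). Their processing notes name FastQC, HISAT2 and hg38 without versions, whereas the quantification tool and the use of strand are not given in the sources used here. All single-sample tables equal the table of the series. Identifiers were named with GENCODE release 29, FPKM was summed per gene, and limma 3.58.1 in R 4.3.3, with trend and without robust estimation, was run on log2(FPKM + 1) and tested on simulated data. Depth was estimated from the FPKM of 1 fragment in 14216 single-transcript genes 600 to 5000 bases long. Only 30.3% to 34.2% of low values lay within 0.1 of a whole fragment, so whole reads were not recovered. Sums, distances, motifs and figures used Python 3.11.15 with numpy 2.4.6, pandas 2.3.3, scipy 1.17.1 and matplotlib 3.10.9.

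The members, the 5 pathway lists and the marker lists were chosen with earlier results of these data known. From each list, up to 4 genes per direction with the largest absolute log2 fold change among those passing were named, with all genes of the remaining family list, BRCA1, GAPDH, the 2 closest profiles of each member, and per marker list the most abundant gene and those listed at 0. The chromosome 4 neighbours, overlapping genes, single transcripts, ADAM10, ADAM17, KRT5, KRT14, TP63 and CD14 were named after their values were seen. The same holds for KRT6A, SFN, PERP, DSP, CDH1, KRT19, CLDN4 and CLDN7. Some genes covered by these rules are not reported here. Alternatives were other pseudocounts, filters, scalings and transcript choices, a replicate block and leaving out each sample.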

Additional observations from a re-analysis of the deposited data

How the results depend on the processing

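Under 14 alternative settings, EGFR, AREG, EREG, HBEGF, TGFA, BTC and NRG1 passed in every one and EPGN in 13, failing with the most abundant transcript only, while ERBB2 and ERBB3 passed in none. That transcript setting left 1 member past the fold change criterion (2 in the sums), 3291 genes past the adjusted p (5764 in the sums) and 22 of the pathway genes (34 in the sums). Protein-coding transcripts alone left 3694 genes past the adjusted p, and a pseudocount of 0.1 gave 1280 genes past the criterion against 651. Directions reversed, without passing, for ERBB2 (0.94), BACE1 (0.66) and RHBDF1 (0.18) with the most abundant transcript, for GAPDH (-0.16) with protein-coding transcripts, and for GAPDH (-0.0075) under scaling to nuclear protein-coding genes. The cause was not tested. Leaving out each sample gave 8 members higher each time, 2 to 3 members past the criterion, 564 to 663 genes past the criterion, 4268 to 4535 past the adjusted p and 27 to 34 pathway genes. With the replicate number as a block, 4595 genes passed the adjusted p, 646 the criterion and 30 of the pathway genes, and all 8 members still passed, while BACE2, RHBDF1, RHBDF2 and EGR2 did not. Deviations from the group means correlated at -0.02, 0.02 and 0.01 between samples with the same number. Whether samples with the same number were prepared together is not given in the sources used here, and these correlations cannot decide it. Over 36 single genes, 436 of 491 values kept direction and side of the threshold, 48 no longer passed, 2 newly passed and 5 reversed. Depth limits EPGN most, with 3.42 to 12.0 estimated fragments per NC sample.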
